A study of Mus musculus and synthetic construct with 15 samples.

Results

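The regions described here are the 305 whose identifier in a mouse heart reporter assay carries the tag aMTF+p300 and no other tag, out of 3820 regions in the library. The members were chosen by that identifier alone, and no measured value entered the choice. The tag reads as an atrial region with several transcription factors and p300, but the files do not define it, and no binding data were used here, so the name could not be checked against occupancy. Another 62 regions carry aMTF+p300 together with a further tag and were not counted as members. The 305 regions are 400 bp long and come from 258 numbered elements on 19 chromosomes. Of these elements, 211 contributed 1 region and 47 contributed 2 or more regions, called tiles below, so members of 1 element are not independent of each other.

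The assay was an AAV9 massively parallel reporter assay in WT mice, named in the series title as a search for enhancers selective for a heart chamber. All animals received the AAV9 library as pups on postnatal day 0, and the heart chambers were taken on postnatal day 7. The 15 libraries formed 3 groups of 5: reporter RNA from atrium and reporter RNA from ventricle, both labelled as cardiomyocytes of WT mice given the AAV9 library, and DNA of the AAV library itself. Separate animals are not stated for the 5 replicates of a chamber, so p-values measure the spread between these libraries, which may be technical. The counts hold reporter regions only and no endogenous gene, so tissue and cell type could not be checked against marker genes.

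In such an assay each candidate sequence is packaged in many viral genomes, and the RNA it gives is read by sequencing and set against its DNA. An enhancer is a stretch of DNA that raises transcription of a gene, often at a distance, when transcription factors bind it. In heart muscle cells these factors include GATA4, NKX2-5, MEF2, SRF, TBX5 and TEAD1, and p300 is an acetyltransferase that they recruit and that marks many active enhancers. Atrial and ventricular muscle cells share most of these factors yet differ in contractile proteins, ion channels and hormones.

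The members lay mostly away from gene starts. Their midpoint fell inside a protein-coding gene for 49.5% of them, against 49.97% of all regions, and 257 of 305 had a protein-coding gene within 100 kb (204 different genes). Of the 295 members on chromosomes covered by the table of start sites, 5 had a midpoint within 1000 bp of a listed start, none of them the start of a protein-coding gene. That was 1.69% of these members, against 3.32% of all regions on such chromosomes, so the whole library lay mostly away from starts. None overlapped a listed miRNA. The nearest gene is used below as an address and not as a shown target. Of the members, 226 were placed by the group column of the deposited table in the class MTF or P300, 42 in spMTF or spP300, 29 in TF3-4 and 8 in TF1-2, and the files do not explain these names.

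Sequence was at hand for the few members that overlap a RefSeq promoter window, which runs from 250 bases before to 50 bases after a listed start (GRCm38.p6, the same build as mm10). There were 3 such members, and all 3 starts belong to long noncoding RNAs. They are shown because they are the only members whose own letters were given, and because 2 of them are adjoining tiles of 1 element with opposite activity (described below). Capitals mark motif matches on either strand. The motifs searched were AGATAA for the GATA factors, GGAATG for the TEAD factors and GGTGTGA for the T-box factors. For NKX2-5 a longer motif, CACTTAA, and a shorter one, AAGTG, were used, and the opposite strand of the longer holds the shorter. The MEF2 and SRF motifs were searched too.
Tile 218-0, start of Gm32352, chr8:119670584-119670815, minus strand, the part of the window inside this tile: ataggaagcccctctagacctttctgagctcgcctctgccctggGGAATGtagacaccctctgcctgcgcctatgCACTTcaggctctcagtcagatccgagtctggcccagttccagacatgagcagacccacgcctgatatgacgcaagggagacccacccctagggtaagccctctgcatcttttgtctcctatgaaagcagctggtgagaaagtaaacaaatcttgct
Tile 218-1, another start of Gm32352, chr8:119670887-119671186, minus strand: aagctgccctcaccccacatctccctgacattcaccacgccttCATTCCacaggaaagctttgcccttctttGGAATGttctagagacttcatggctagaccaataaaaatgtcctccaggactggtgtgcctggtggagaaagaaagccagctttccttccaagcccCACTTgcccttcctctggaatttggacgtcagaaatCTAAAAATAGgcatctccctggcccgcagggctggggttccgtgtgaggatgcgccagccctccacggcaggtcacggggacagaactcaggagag
Tile 224-1, start of Gm33616, chr9:106418301-106418600, minus strand: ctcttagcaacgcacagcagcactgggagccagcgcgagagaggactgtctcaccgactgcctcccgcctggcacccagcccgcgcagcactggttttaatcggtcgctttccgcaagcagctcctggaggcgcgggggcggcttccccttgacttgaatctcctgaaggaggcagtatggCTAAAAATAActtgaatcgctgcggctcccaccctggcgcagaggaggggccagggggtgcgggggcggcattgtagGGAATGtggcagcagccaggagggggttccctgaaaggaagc

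Tile 218-0 held 1 GGAATG and 1 AAGTG in its 232 bases, the stretch printed for tile 218-1 held 2 GGAATG, 1 AAGTG and 1 MEF2 match, and tile 224-1 held 1 GGAATG and 1 MEF2 match. Among 32851 RefSeq promoter windows of 300 bases, GGAATG occurred in 14.7%, AAGTG in 46.4% and the MEF2 motif in 3.19%. Cut to 232 bases, the windows held GGAATG in 11.3% and AAGTG in 37.9%. The remaining motifs had no match in these windows and occurred in 11.2% (AGATAA), 3.98% (GGTGTGA), 2.41% (CACTTAA) and 1.63% (SRF) of windows. A further 68 bases of tile 218-1 that lie in the window of the other start, not printed, held 1 AAGTG. A match describes letters and is not a bound site.

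Replicate 1 of both RNA groups stood apart from replicates 2 to 5. Library totals were 877773 counts in atrial replicate 1 and 1718563 to 2369985 in the other atrial libraries, 1271527 in ventricular replicate 1 and 2862596 to 3781726 in the other ventricular libraries, and 2312820 to 2958271 in DNA. Members at 0 counts numbered 52 in atrial replicate 1 and 47 in ventricular replicate 1, near the 49 to 56 of the DNA libraries, against 3 to 5 in the other atrial and 0 to 4 in the other ventricular libraries. The same held over all 3820 regions. There 765 and 700 were at 0 in replicate 1 of atrium and ventricle, and 657 to 731 in DNA. The other atrial libraries had 71 to 85 and the other ventricular ones 36 to 66. Levels are given in CPM, the count scaled to the library size, and a count of 0 is compatible with 3.42 CPM in atrial replicate 1 and 0.793 CPM in ventricular replicate 4 (3 counts, counting error alone). Whether the DNA libraries represent the virus given to replicates 2 to 5 is therefore uncertain, and this touches every RNA over DNA value. Results are given from all 5 libraries of a group and, where this matters, from replicates 2 to 5.

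The members took a somewhat larger part of the RNA than of the DNA. They held 9.97% to 10.5% of the counts in atrial libraries, 9.004% to 9.55% in ventricular libraries and 8.57% to 8.82% in DNA libraries. The 5 atrial shares all lay above the 5 ventricular shares, and both RNA groups lay above DNA. Tests covered the 2601 regions whose DNA count averaged 10 or more, of which 218 were members (71.5% of members, against 68.1% of all regions). The other 87 members are described at the end.

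Between chambers, reporter RNA of the members leaned to the atrium, but most members did not pass the test. Of 218 members, 52 were higher in atrium (23.9%, against 15.8% of all tested regions), 22 were higher in ventricle (10.1%, against 15.1% of all), and 144 did not pass at an adjusted p under 0.05 in edgeR's quasi-likelihood test. The median log2 ratio of atrium over ventricle was 0.20 in members, with quartiles of -0.13 and 0.53, against 0.03 over all tested regions. A positive log2 ratio was found in 143 members (65.6%), against 1352 of all 2601 tested regions. The differences were mostly small: 18 members that passed were over 2-fold higher in atrium and 5 were over 2-fold higher in ventricle. Over all 2601 tested regions these counts were 127 and 79. The 5 atrial libraries lay wholly above the 5 ventricular ones for 36 members and wholly below for 19, together 25.2% of members against 22.8% of all tested regions.

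The lean was seen at each replicate number. The median log2 ratio of members, with 1 CPM added, was 0.17, 0.18, 0.21, 0.23 and 0.14 at replicate numbers 1 to 5, against -0.02 to 0.00 over all tested regions. With replicates 2 to 5 only, 50 members passed toward atrium and 20 toward ventricle, with 65 of the 74 original calls shared at the same sign. In replicate 1, which this narrower fit did not use, 68 of its 70 calls had the same sign. With the replicate number as a block, 60 were higher in atrium and 25 in ventricle. Scaling on the regions of the group column's class Neg shifted the median over all regions (by 0.16) and gave 70 higher in atrium and 15 in ventricle, so that 82.4% of the calls were toward atrium, against 70.3% with TMM factors.

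**Figure D1:**
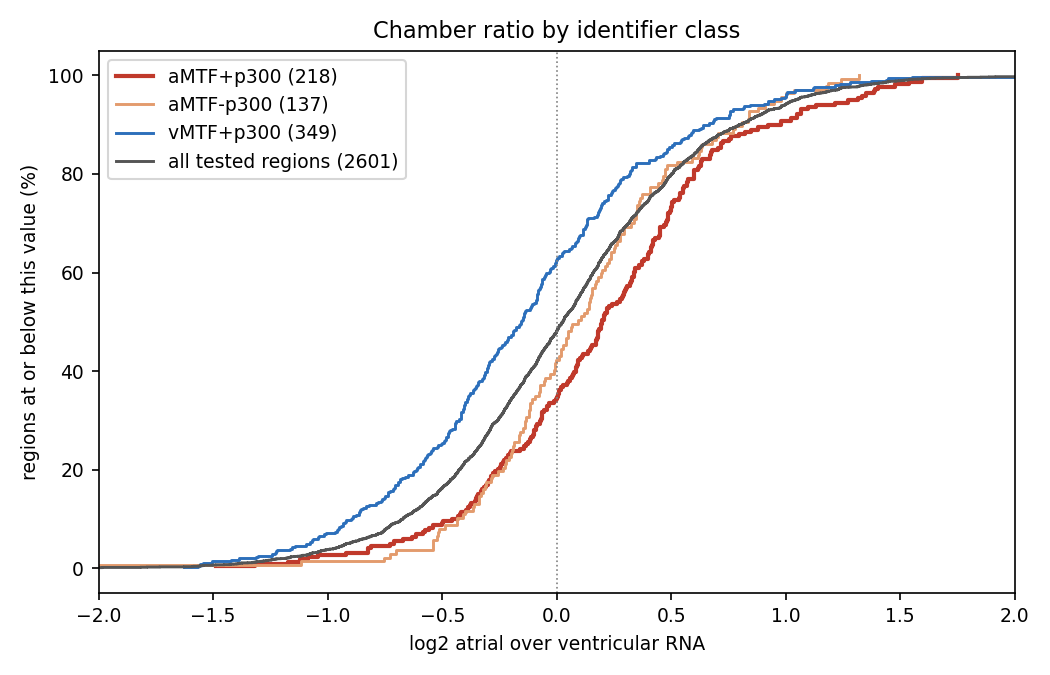
Share of regions (vertical axis, percent) at or below a given log2 ratio of atrial over ventricular reporter RNA (horizontal axis), for 4 sets of tested regions; the axis is limited to -2 to 2. The curve of the 218 aMTF+p300 regions lies to the right of that of all 2601 tested regions (medians 0.20 and 0.03), and the curve of the 349 vMTF+p300 regions lies to the left (median -0.16).

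Regions with related tags give the frame for these counts. The aMTF-p300 regions, which have the atrial tag with a minus sign before p300, had a median between those of the members and all regions. Their upper quartile of 0.37 was below that of all regions (0.40) and of the members (0.53). Of 137 tested aMTF-p300 regions, 22 passed toward atrium and 15 toward ventricle, at a median log2 ratio of 0.10. Of 349 tested vMTF+p300 regions, 41 were higher in atrium and 105 in ventricle, with a median of -0.16. Of 123 tested vMTF-p300 regions, 18 and 33 were, with a median of -0.18. The differences between these classes were not tested, and the classes overlap widely in single values.

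Within the members, the chamber lean went with the amount of DNA. In the 103 members with a mean DNA count of 300 or more, 37 were higher in atrium and 12 in ventricle, with a median log2 ratio of 0.37 (290 and 191 of the 1177 regions of that DNA level, median 0.11). In the 46 members at 100 to under 300, 10 and 0 were, with a median of 0.24 (69 and 97 of 570 regions, median -0.02). In the 69 members at 10 to under 100, 5 and 10 were, with a median of 0.00 (53 and 104 of 854 regions, median -0.09). The part of DNA amount in the chamber difference was not tested. By the group column, 45 of 173 tested members in MTF or P300 were higher in atrium and 15 in ventricle (median 0.21), against 238 and 189 of all 1170 tested regions of that class. In spMTF or spP300, 6 and 4 of 25 members were (median 0.34), against 84 and 102 of 520 regions. In TF3-4, 1 and 3 of 18 members were (median 0.04), against 42 and 26 of 214 regions. Of 101 tested members inside genes, 27 passed toward atrium and 9 toward ventricle, against 222 and 215 of all 1368 such regions. Of 33 with no protein-coding gene in the 100 kb window, 10 and 2 did, against 32 and 41 of 233. Of 25 within 10 kb of a gene, 6 and 3 did, against 57 and 47 of 310, and of 59 lying 10 to 100 kb away, 9 and 8 did, against 101 and 89 of 690.

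**Figure D2:**
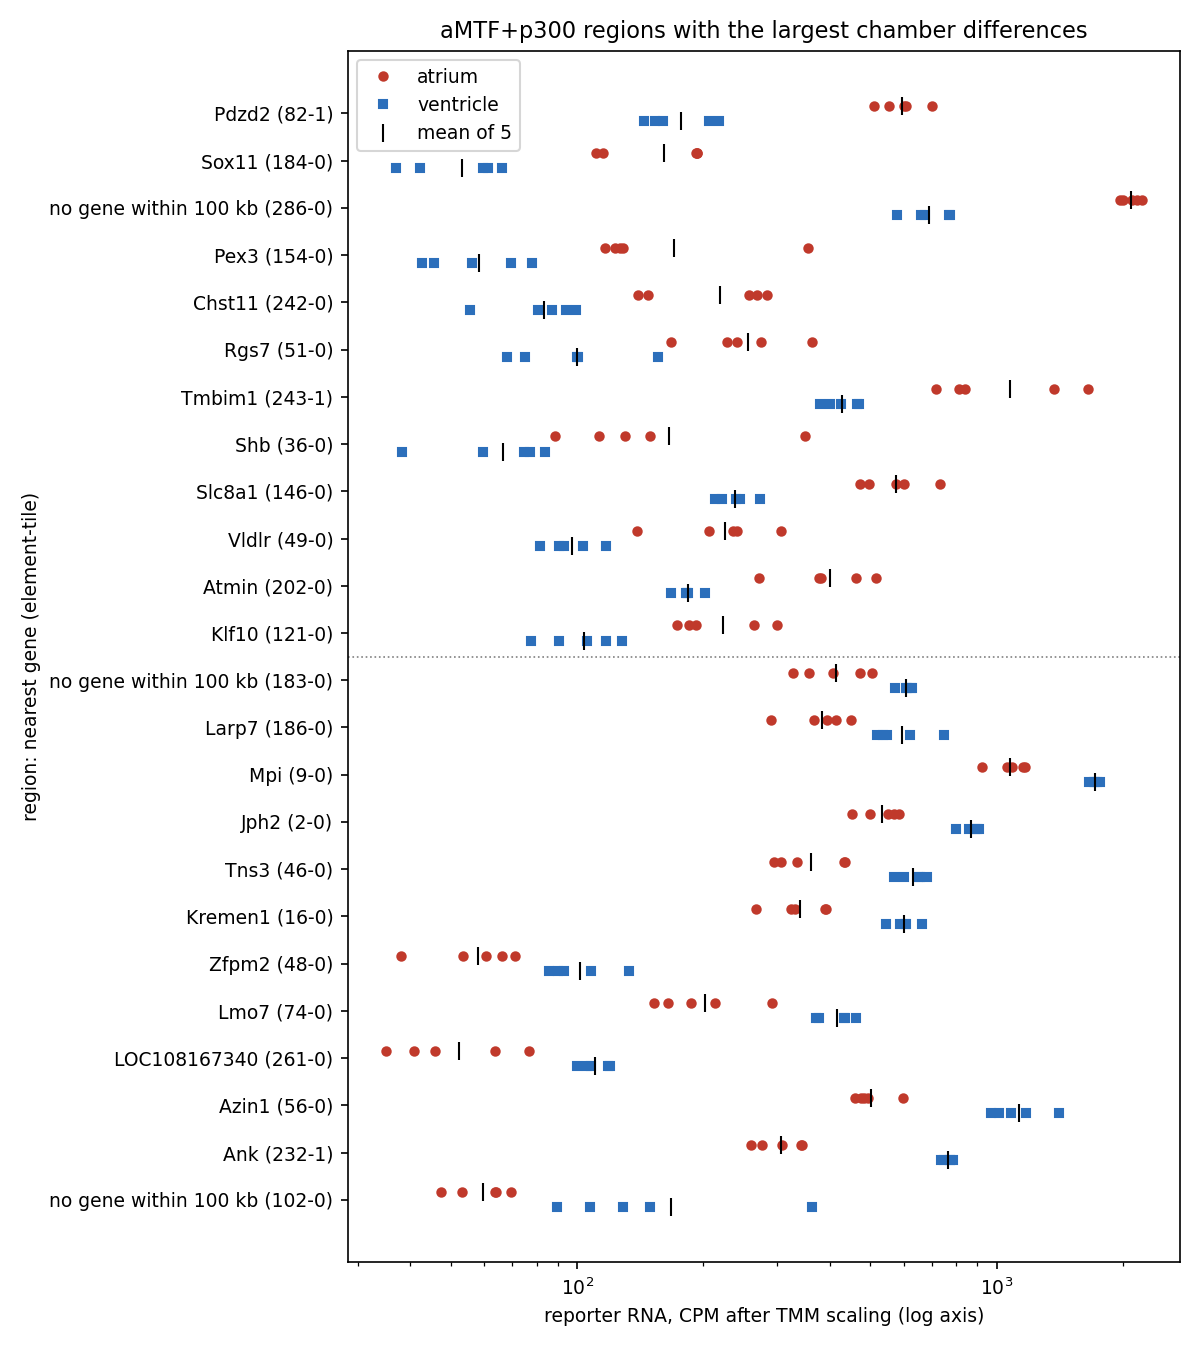
Reporter RNA of 24 members in the 5 atrial (circles) and 5 ventricular (squares) libraries, in CPM after TMM scaling on a log axis, with black ticks at the mean of 5. Only members that passed and whose groups do not overlap were ranked, so the lack of overlap in all 24 is a condition of the choice. Above the dotted line are the 12 of them with the largest differences toward atrium, led by Pdzd2 82-1 (594 CPM in atrium, 176 CPM in ventricle). Below it are the 12 with the largest differences toward ventricle, which end with 102-0 (59.5 and 167 CPM).

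The largest difference toward atrium was in tile 82-1, 10.2 kb from Pdzd2, which encodes a protein with several PDZ domains (chr15:12749981-12750380). Its reporter RNA was 700.2, 553, 608, 509 and 602 CPM in atrium, against 218, 144, 159.9, 207 and 154 CPM in ventricle. The lowest atrial library was over 2-fold above the highest ventricular one, and the ratio was 3.37-fold (log2 ratio 1.75 ± 0.15 SE, adjusted p = 2.75e-07). A region on chromosome 8 with no gene in the window (286-0, chr8:77988335-77988734) was the most abundant of the strongly atrial members. It had 1974, 2001, 2223, 2106 and 2158 CPM in atrium, against 662, 675, 577, 775 and 771 CPM in ventricle. The libraries within each chamber were close together, and the log2 ratio was 1.60 ± 0.09 (SE, adjusted p = 5.31e-09). Near Sox11, a transcription factor of the SOX family that acts in development, region 184-0 (chr12:27271529-27271928) had 193, 115, 191, 111 and 193 CPM in atrium, against 59.5, 66.1, 36.9, 42.0 and 61.3 CPM in ventricle. Atrial replicates 2 and 4 were lower than the other three but still above every ventricular library (log2 ratio 1.60 ± 0.25, adjusted p = 0.000122).

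Inside Slc8a1, the sodium-calcium exchanger that extrudes calcium from heart muscle cells, region 146-0 (chr17:81481598-81481997) had 732, 473, 601, 577 and 496 CPM in atrium, against 273, 244, 213, 222 and 239 CPM in ventricle. The groups were well apart, at a ratio of 2.42-fold (log2 ratio 1.27 ± 0.13, adjusted p = 2.91e-06). Inside Atmin, a zinc-finger protein of the DNA damage response, region 202-0 (chr8:116946299-116946698) had 377, 272, 381, 463 and 515 CPM in atrium, against 168, 181, 201, 182 and 183 CPM in ventricle. The ventricular values lay within a narrow band below all atrial ones (log2 ratio 1.13 ± 0.16, adjusted p = 6.3e-05). Near Vldlr, the very low density lipoprotein receptor, region 49-0 (chr19:27211084-27211483) had 240.2, 206, 236, 307 and 139 CPM in atrium, against 81.5, 117, 90.2, 103 and 93.0 CPM in ventricle. Atrial replicate 5 was the lowest of its group and closest to the ventricle (log2 ratio 1.22 ± 0.20, adjusted p = 0.000264).

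Inside Tmbim1, a membrane protein with a BAX inhibitor motif, tile 243-1 (chr1:74295535-74295934) had 718, 840.3, 1368, 813 and 1652 CPM in atrium, against 465, 470.4, 379, 426 and 400.2 CPM in ventricle. Atrial replicates 3 and 5 were high and the other three closer to the ventricle, so the spread lay mainly in the atrium (log2 ratio 1.33 ± 0.22, adjusted p = 0.000875). Region 242-0 inside Chst11, a chondroitin sulfotransferase (chr10:83060326-83060725), had a log2 ratio of 1.39 ± 0.24 (adjusted p = 0.000313). Region 51-0 inside Rgs7, a regulator of G protein signalling (chr1:175360017-175360416), had 1.35 ± 0.24 (adjusted p = 0.00054). Region 121-0 near Klf10, a zinc-finger factor induced by TGF-beta (chr15:38342793-38343192), had 1.10 ± 0.20 (adjusted p = 0.000613).

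For 2 further atrial members a single library carried much of the size. Region 154-0 inside Pex3, a protein of peroxisome assembly (chr10:13534701-13535100), had 123, 128, 126, 116 and 355 CPM in atrium, against 45.4, 77.9, 56.2, 42.6 and 69.5 CPM in ventricle. Its log2 ratio was 1.54 ± 0.33 (adjusted p = 0.00222) and 1.07 (adjusted p = 0.00214) without atrial replicate 5. Region 36-0 inside Shb, an SH2-domain adaptor of growth factor signalling (chr4:45444769-45445168), had 113, 88.4, 349, 129.7 and 149 CPM in atrium, against 59.5, 74.8, 77.2, 83.8 and 38.1 CPM in ventricle. Its log2 ratio was 1.32 ± 0.35 (adjusted p = 0.0104) and 0.84 (adjusted p = 0.0225) without atrial replicate 3. Both remained higher in atrium without the high library.

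Toward the ventricle, the largest difference that was even across libraries was in tile 232-1 inside Ank, a membrane protein that moves pyrophosphate and ATP out of cells (chr15:27537860-27538259). Its reporter RNA was 259, 308, 344, 341 and 276 CPM in atrium, against 736, 751, 789, 773 and 773 CPM in ventricle. The highest atrial library was over 2-fold below the lowest ventricular one, and the RNA was 2.5-fold lower in atrium (log2 ratio -1.32 ± 0.10, adjusted p = 1.33e-07). Near Azin1, the antizyme inhibitor that raises polyamine synthesis, region 56-0 (chr15:38452696-38453095) had 599.9, 493, 460.1, 483 and 474 CPM in atrium, against 1413, 1179, 1085, 968 and 1012 CPM in ventricle. Replicate 1 was the highest of its group in both chambers, and the groups did not overlap (log2 ratio -1.17 ± 0.11, adjusted p = 1.14e-06). Inside Lmo7, a LIM-domain protein of cell junctions, region 74-0 (chr14:101872885-101873284) had 152, 214, 165, 187 and 292 CPM in atrium, against 436, 463, 378, 372 and 432 CPM in ventricle. Atrial replicate 5 came nearest to the ventricle and was still below it (log2 ratio -1.04 ± 0.17, adjusted p = 0.0002).

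Region 102-0 on chromosome 8 (chr8:91967378-91967777) had 47.4, 63.5, 53.0, 64.1 and 69.6 CPM in atrium, against 107, 362, 89.2, 128 and 149 CPM in ventricle. Ventricular replicate 2 was far above the others, and the log2 ratio was -1.49 ± 0.34 (adjusted p = 0.00365) with it and -0.999 (adjusted p = 0.00577) without it. Inside Mpi, mannose phosphate isomerase, region 9-0 (chr9:57550100-57550499) had 923, 1086, 1169, 1154 and 1062 CPM in atrium, against 1717, 1707, 1661, 1741 and 1768 CPM in ventricle. The difference was small but tight, 1.59-fold lower in atrium (log2 ratio -0.67 ± 0.08, adjusted p = 7.27e-06). Region 16-0 near Kremen1, a receptor for the Wnt inhibitors of the Dickkopf family (chr11:5265829-5266228), had a log2 ratio of -0.82 ± 0.12 (adjusted p = 7.13e-05). Region 46-0 inside Tns3, a tensin of focal adhesions (chr11:8579894-8580293), had -0.81 ± 0.13 (adjusted p = 0.000146). Region 186-0 near Larp7, which binds the 7SK RNA (chr3:127525332-127525731), had -0.63 ± 0.14 (adjusted p = 0.002). Region 261-0 near LOC108167340 (chr16:12697257-12697656) had -1.09 ± 0.24 (adjusted p = 0.00247), and region 183-0 on chromosome 18 had -0.56 ± 0.12 (adjusted p = 0.00213).

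Few members lay near the heart genes on the fixed lists. Of 305 members, 10 had a nearest gene on a list and 9 of these were tested. Of 26 atrial genes only Chrm2 was the nearest gene of a member, and of 23 ventricular genes none was. Such addresses were rare in the whole library too: 54 of 3820 regions were on the atrial list and 35 on the ventricular list. The member near Chrm2, the muscarinic receptor that slows the heart, had 69.9, 69.4, 91.3, 74.5 and 142 CPM in atrium, against 88.5, 87.8, 70.9, 69.7 and 68.4 CPM in ventricle (region 93-0, chr6:36596501-36596900). The groups overlapped, with atrial replicates 3 and 5 above all ventricular libraries and the other three within their range, and the log2 ratio of 0.22 ± 0.24 did not pass (adjusted p = 0.544).

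Among the cardiac transcription factors on the list, 4 members were tested, of which 1 was higher in atrium and 1 in ventricle. Of all 30 tested regions on this list, 4 were higher in atrium and 6 in ventricle. Inside Zfpm2, the GATA cofactor FOG2 needed for heart development, region 48-0 (chr15:40674685-40675084) had 71.0, 66.1, 37.9, 60.4 and 53.5 CPM in atrium, against 85.4, 133, 108, 90.1 and 93.0 CPM in ventricle. It was 1.77-fold lower in atrium with no overlap (log2 ratio -0.82 ± 0.23, adjusted p = 0.0124). Inside Foxp1, a forkhead repressor of the developing heart, region 192-0 (chr6:99485135-99485534) had 741, 641, 828, 601 and 1179 CPM in atrium, against 649, 502, 576, 481 and 618 CPM in ventricle. The groups overlapped and the call was fragile: the log2 ratio was 0.50 ± 0.16 (adjusted p = 0.032) with all libraries and 0.30 (adjusted p = 0.0779) without atrial replicate 5. The call was also lost without atrial replicate 3 (adjusted p = 0.0722) and without ventricular replicate 2, 3 or 4 (adjusted p = 0.0903, 0.0693 and 0.0936). The 2 members near Myocd, the coactivator of SRF, did not pass: region 276-0 inside the gene (chr11:65205299-65205698) had 296 ± 46.7 CPM in atrium and 289.8 ± 22.8 CPM in ventricle (SD, n = 5 each), and region 1-0 (chr11:65358885-65359284) had 13.9 ± 6.54 and 15.1 ± 8.20 CPM.

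Of the ion channel and calcium genes, 3 members were tested, and they pointed different ways. Besides region 146-0 in Slc8a1, which was higher in atrium, region 2-0 lay inside Jph2, junctophilin 2, which holds the junctions between the cell membrane and the calcium store (chr2:163392337-163392736). It had 452, 586, 570.4, 552 and 498 CPM in atrium, against 801, 908, 858, 898 and 888 CPM in ventricle. The groups were clearly apart, with 1.64-fold less RNA in atrium (log2 ratio -0.71 ± 0.09, adjusted p = 2.67e-05). Region 11-0 near Cacnb2, a subunit of the L-type calcium channel (chr2:14571202-14571601), had 69.7 ± 20.1 CPM in atrium and 81.6 ± 11 CPM in ventricle (SD, n = 5 each) and did not pass (adjusted p = 0.533). The member inside Igf1r, the receptor of insulin-like growth factor 1, had 242 ± 30.6 CPM in atrium and 184 ± 22.5 CPM in ventricle (SD, n = 5 each), just short of the threshold (region 214-0, chr7:68231623-68232022, adjusted p = 0.0544).

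Set against DNA, the members ranged from strongly active to strongly depleted, as ratios centred by TMM on most of the regions. In atrium, 103 of 218 members were higher than DNA (47.2%, against 38.4% of all tested regions), 69 were lower (31.7%, against 36.3%) and 46 did not pass, with a median log2 ratio of 0.30 (0.04 over all). In ventricle, 97 were higher (44.5%, against 43.4% of all), 83 were lower (38.1%, against 37.8%) and 38 did not pass, with a median of 0.15 (0.13 over all). Both chambers share the DNA libraries, so agreement between them is partly built in. Higher than DNA in at least 1 chamber were 108 of 218 members, against 1220 of 2601 tested regions. Side by side, 92 members were higher than DNA in both chambers, 65 were lower in both, and none passed in opposite directions. These joint counts were made for members only. With replicates 2 to 5 only, 103 were higher and 60 lower in atrium, and 96 higher and 82 lower in ventricle, with 159 of 172 atrial and 177 of 180 ventricular calls shared. The split depended on scaling. When library totals replaced the TMM factors, the median of all regions moved by 0.48 in atrium and 0.37 in ventricle, and 129 members were higher and 41 lower in atrium, and 122 higher and 61 lower in ventricle. Calls toward RNA then made up 75.9% in atrium (59.9% with TMM factors) and 66.7% in ventricle (53.9%). Scaling on the Neg regions moved the atrial median by 0.40 and gave 123 higher and 42 lower (74.5% toward RNA). The members' median less that of all regions was 0.26 in atrium and 0.02 in ventricle under all 3 scalings. A change of scaling moves all regions nearly alike, so this difference could hardly change.

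RNA over DNA fell steeply with the amount of DNA. In atrium, the median log2 ratio of members was 2.20 in members with 10 to under 100 DNA counts, 0.36 in those with 100 to under 300 and -0.27 in those with 300 or more, against 1.21, 0.20 and -0.66 over all tested regions of the same levels. In ventricle, the members' medians were 2.37, 0.12 and -0.52, against 1.43, 0.28 and -0.69. DNA counts enter both quantities, and the part of low DNA in these ratios was not tested.

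**Figure D3:**
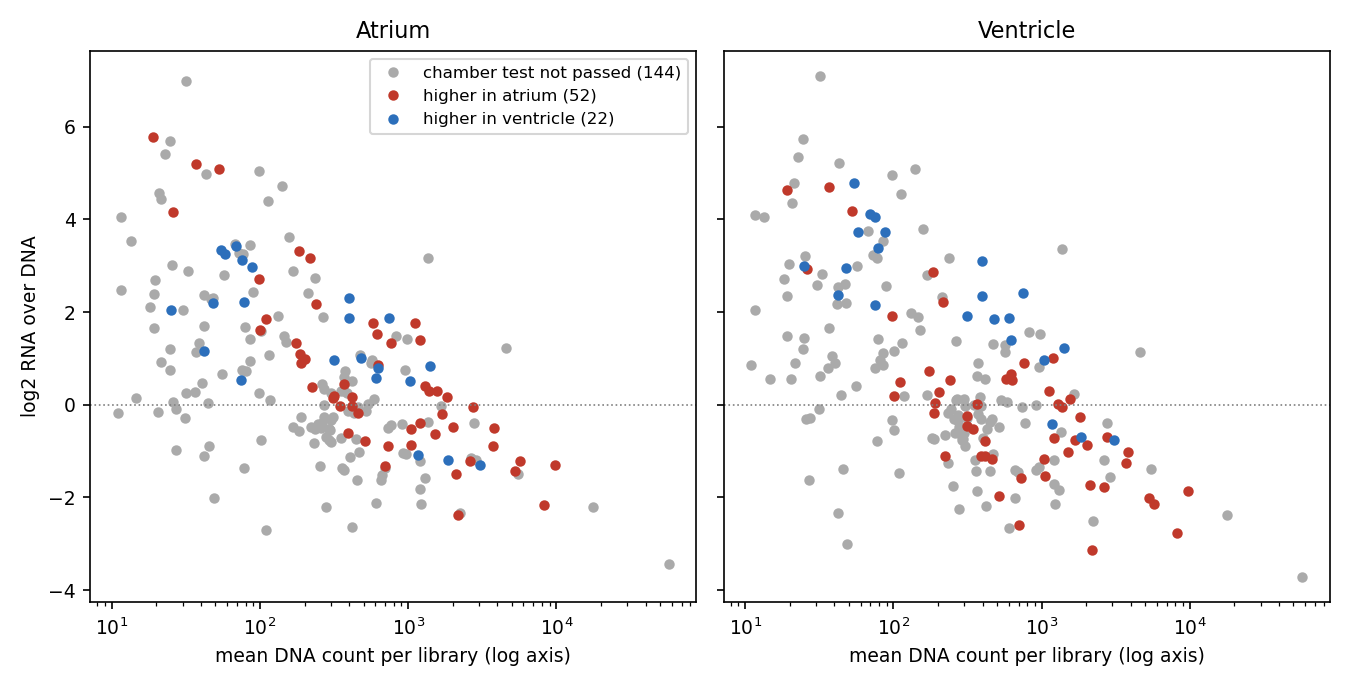
Log2 ratio of RNA over DNA (vertical axis) against mean DNA count per library (log axis) for the 218 tested members, in atrium (left) and ventricle (right); colours mark the 52 members higher in atrium, the 22 higher in ventricle and the 144 that did not pass between chambers. Ratios fall with DNA count in both panels, from a highest value of 6.99 in atrium and 7.10 in ventricle to a lowest of -3.43 and -3.72.

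The member with the highest RNA over DNA in both chambers was region 13-0 on chromosome 4, with no gene in the window (chr4:105364498-105364897). In ventricle its RNA was 2023, 1942, 1851, 2019 and 1984 CPM, against 13.8, 19.2, 16.2, 10.1 and 12.5 CPM in DNA, a log2 ratio of 7.10 ± 0.14 (adjusted p = 2.36e-16), and in atrium the ratio was 6.99 ± 0.16 (adjusted p = 1.45e-12). The RNA libraries lay close together in both chambers. Near Fxr1, an RNA-binding protein of striated muscle, region 178-0 (chr3:33989195-33989594) had 1866, 1510.5, 2035, 1737 and 1419 CPM in atrial RNA, against 66.7, 68.9, 60.6, 67.0 and 62.1 CPM in DNA. Its DNA was even across libraries and better covered than in most highly active members, with a mean of 141 counts, and the log2 ratio was 4.72 ± 0.12 in atrium (adjusted p = 1.92e-12) and 5.08 ± 0.09 in ventricle (adjusted p = 2.03e-16). Inside Pcp4l1, tile 114-0 (chr1:171189035-171189434) had 1215, 1110.5, 1103, 1065 and 975 CPM in atrial RNA, against 52.1, 53.1, 38.9, 70.8 and 44.6 CPM in DNA (log2 ratio 4.39 ± 0.15, adjusted p = 1.83e-11). In ventricle it reached 4.55 ± 0.13 (adjusted p = 9.56e-15), and between chambers it did not pass (adjusted p = 0.805).

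Region 146-0 in Slc8a1, described above as atrial, had 242, 217, 188, 195 and 209 CPM in ventricular RNA, against 8.57, 11, 5.59, 9.70 and 7.13 CPM in DNA (log2 ratio 4.63 ± 0.17, adjusted p = 2.88e-13). It was thus far above DNA also in the chamber where it was lower, and its atrial ratio was 5.78 ± 0.21 (adjusted p = 2.78e-11). Tile 232-1 in Ank, higher in ventricle, had 654, 667, 695, 681 and 676 CPM in ventricular RNA, against 17.5, 20.5, 20.1, 33.5 and 30.3 CPM in DNA (log2 ratio 4.79 ± 0.15, adjusted p = 2.88e-14). Tile 199-1, 3.9 kb from Smad7, the inhibitory SMAD of TGF-beta signalling (chr18:75363219-75363618), had log2 ratios of 4.56 ± 0.24 in atrium and 4.35 ± 0.26 in ventricle. Region 10-0 inside Xrcc4, a DNA end-joining protein (chr13:90012205-90012604), had 4.44 ± 0.24 in atrium and 4.78 ± 0.27 in ventricle. Regions 193-0 on chromosome 3 (chr3:85339569-85339968) and 159-0 on chromosome 13 (chr13:102391861-102392260), with no gene in the window, had 5.19 ± 0.20 and 5.10 ± 0.19 in atrium. Of these named regions, 13-0, 193-0, 159-0 and those in or near Slc8a1, Smad7 and Xrcc4 were sparse in DNA, with 19 to 52.8 counts per library on average.

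At the other end, region 228-0 near Snx6, a sorting nexin of the retromer (chr12:54734526-54734925), was by far the most abundant member in DNA. It had 5438, 2326, 1520.5, 1560.4 and 1597 CPM in atrial RNA, against 25461, 27589, 28032, 25828 and 26655 CPM in DNA (log2 ratio -3.43 ± 0.39, adjusted p = 2.25e-05). Replicate 1 was the highest RNA library of both chambers, and without it the log2 ratio was -3.93 in atrium and -4.31 in ventricle, against -3.72 ± 0.40 in ventricle with it. Tile 181-1 near Pdik1l, a protein kinase (chr4:134293835-134294234), had 106, 131, 96.8, 145 and 83.3 CPM in ventricular RNA, against 974, 939, 1218, 803 and 991 CPM in DNA. Every RNA library was over 5-fold below every DNA library (log2 ratio -3.13 ± 0.16, adjusted p = 1.04e-10), and the atrial ratio was -2.37 ± 0.22 (adjusted p = 5.89e-07). Both tiles of element 37 near Sik1, a salt-inducible kinase, were low in both chambers. Tile 37-0 (chr17:31892532-31892931) had a log2 ratio of -3.01 ± 0.44 in ventricle (-3.60 without ventricular replicate 1) and -2.01 ± 0.43 in atrium. Tile 37-1 (chr17:31892932-31893331) had -2.77 ± 0.12 in ventricle and -2.17 ± 0.11 in atrium. Region 29-0 inside Snrpd3, a core spliceosome protein (chr10:75534909-75535308), had -2.64 ± 0.18 in atrium and -2.19 ± 0.32 in ventricle. Region 24-0 inside Ergic1, a protein of the ER-Golgi compartment (chr17:26645005-26645404), had -2.71 ± 0.49 in atrium and -1.46 ± 0.29 in ventricle.

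Chamber calls were found at both ends of activity, but in different proportions. Of the 108 members higher than DNA in at least 1 chamber, 24 passed toward atrium and 19 toward ventricle. Of the 110 members higher than DNA in neither chamber, 28 were higher in atrium and 3 in ventricle. Over all tested regions the same split gave 181 and 324 of 1220, and 231 and 68 of 1381. The test against DNA shares its RNA libraries with the chamber test, so these counts are a description. By the group column, 5 of 18 tested members in TF3-4 were higher than DNA in atrium and 10 were lower, against 65 and 96 of all 214 tested TF3-4 regions. Among members with no protein-coding gene in the window, 21 of 33 were higher than DNA in atrium and 5 were lower, against 116 and 52 of all 233 such regions.

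Adjoining tiles of 1 element often differed widely from each other in RNA over DNA. Of 46 pairs of touching tiles, 22 had both tiles tested. The median absolute difference between the tiles of a pair was 1.67 in the log2 ratio of atrial RNA over DNA and 1.74 in that of ventricular RNA over DNA, and 10 of 22 pairs differed by over 4-fold in atrium. In the log2 ratio of atrium over ventricle the median absolute difference was 0.54, and 12 of 22 pairs had the same sign in both tiles. In 1 pair both tiles passed between chambers, in 8 pairs 1 tile did, and in 13 pairs neither did. The differences between tiles, and the part of DNA amount in them, were not tested, and pairs of tiles outside the members were not counted.

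**Figure D4:**
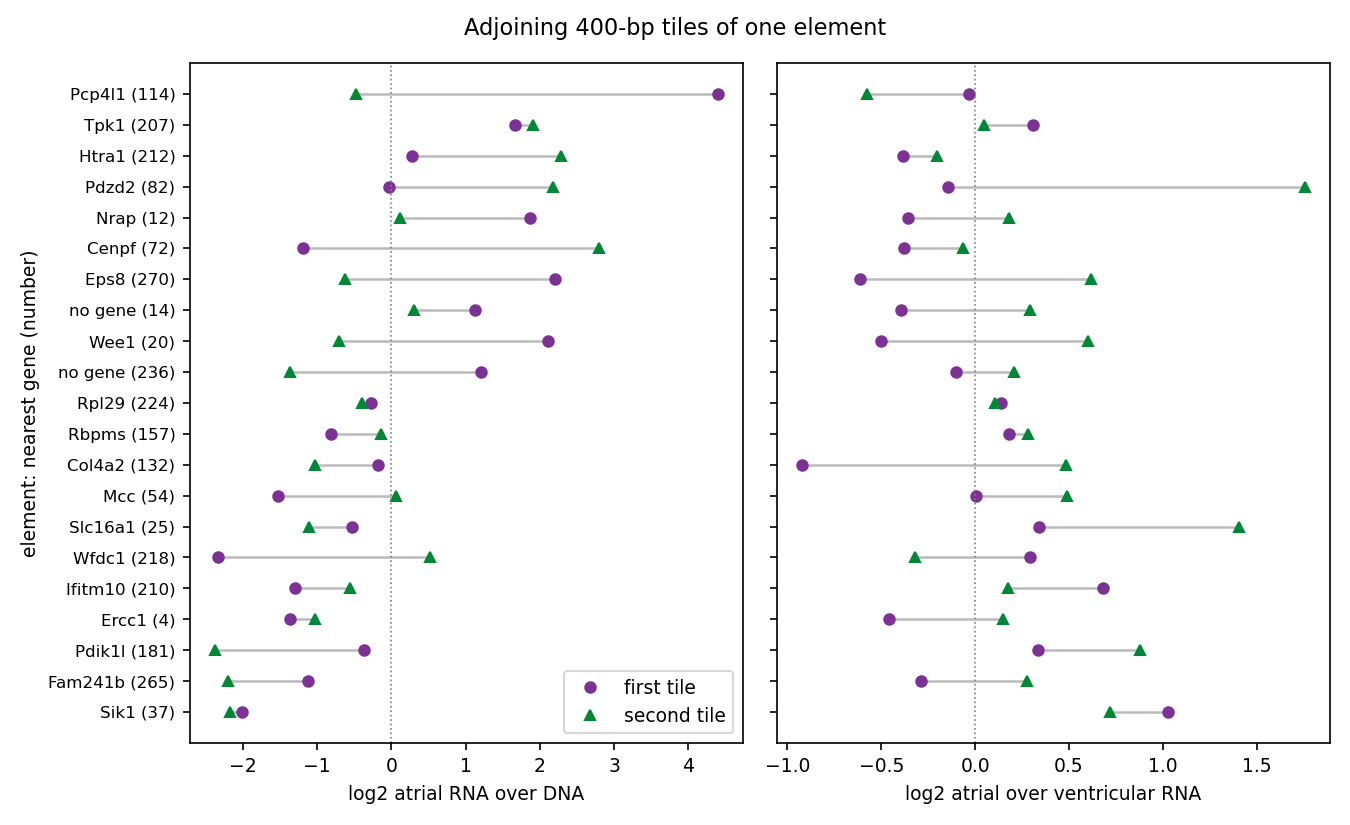
Log2 ratios of 21 of the 22 elements with 2 adjoining tested tiles: atrial RNA over DNA (left) and atrial over ventricular RNA (right), with circles for the tile of lower coordinates, triangles for the next tile and a grey line joining them. Rows are sorted by the pair's mean ratio to DNA; the tiles at Pcp4l1 span 4.39 to -0.48 on the left, and those at Pdzd2 span -0.14 to 1.75 on the right.

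The 2 tiles at the Gm32352 starts, whose letters are printed above, lie inside the protein-coding gene Wfdc1, a secreted protein with a WAP domain. Tile 218-0 (chr8:119670416-119670815) had 266, 243, 199, 129.7 and 193 CPM in atrial RNA, against 1044, 1028, 1159, 881 and 1056 CPM in DNA, a log2 ratio of -2.33 ± 0.16 (adjusted p = 1.56e-08). Tile 218-1 (chr8:119670816-119671215) had 760.3, 579, 658, 740.1 and 719 CPM in atrial RNA, against 491, 486, 494, 458 and 475 CPM in DNA, a log2 ratio of 0.52 ± 0.09 (adjusted p = 0.000112). The first was thus below DNA and the second above it in every library, and in ventricle the ratios were -2.51 ± 0.11 and 0.96 ± 0.08. Between chambers, tile 218-0 did not pass (adjusted p = 0.251), and tile 218-1 had 861, 692, 800.2, 886 and 863 CPM in atrium, against 1084, 968, 1081, 917 and 1063 CPM in ventricle, with no overlap (log2 ratio -0.32 ± 0.09, adjusted p = 0.0137). Tile 224-1 at the start of Gm33616, the remaining member with printed letters, was modestly below DNA in atrium (log2 ratio -0.40 ± 0.11, adjusted p = 0.00655) and ventricle (-0.39 ± 0.09, adjusted p = 0.00124), with overlapping libraries, and did not pass between chambers.

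Element 270, near the actin regulator Eps8, was the only pair with both tiles called between chambers, and the calls were opposite. Tile 270-0 (chr6:137470854-137471253) had 117, 102, 131, 154 and 105 CPM in atrium, against 184, 197, 221, 129 and 201 CPM in ventricle (log2 ratio -0.61 ± 0.19, adjusted p = 0.0198). Tile 270-1 (chr6:137471254-137471653) had 163, 115, 155, 127 and 137 CPM in atrium, against 71.3, 95, 83, 132 and 72.5 CPM in ventricle (log2 ratio 0.62 ± 0.21, adjusted p = 0.0346). In both tiles replicate 4 of the ventricle overlapped the atrial range, and with replicates 2 to 5 neither passed (adjusted p = 0.0538 and 0.129). Tile 82-0, beside the atrial tile 82-1 near Pdzd2, had 682, 808, 677, 1426 and 886 CPM in atrium, against 1074, 1010.1, 1072, 918 and 882 CPM in ventricle, and did not pass (adjusted p = 0.614). At Pcp4l1, tile 114-1 had 69.7, 53.2, 51.2, 30.5 and 75.2 CPM in atrial RNA, against 78.3, 85.7, 65.0, 78.8 and 79.1 CPM in DNA, with no call (adjusted p = 0.0739), next to the strongly active tile 114-0. Near Wee1, a kinase that delays mitosis, tile 20-0 was above DNA in atrium (log2 ratio 2.11 ± 0.29, adjusted p = 1.59e-05) and tile 20-1 below it (-0.71 ± 0.19, adjusted p = 0.0037).

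Some ratios rest on replicates 2 to 5 because replicate 1 held almost none of the RNA. Tile 72-1 near Cenpf, a protein of the kinetochore, had 13.9, 220.0, 276, 189 and 213 CPM in atrial RNA, against 26.2, 22, 27.2, 26.9 and 29.9 CPM in DNA. Atrial replicate 1 was below DNA and the other four were far above it, and the log2 ratio was 2.79 ± 0.54 with all libraries and 3.15 with replicates 2 to 5. Replicate 1 lay over 4-fold below the range of the other four libraries for 6 of 218 tested members in atrium and for 6 in ventricle. The same was true of 1 member in 1 other atrial library (replicate 4) and of none in the other ventricular or any DNA library.

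The 87 members with a mean DNA count under 10 were left out of the tests, but many gave RNA. They held 1.04% to 1.16% of the counts in atrial replicates 2 to 5 and 0.971% to 1.05% in ventricular replicates 2 to 5, against 0.0928% and 0.0901% in replicate 1 of atrium and ventricle. In the DNA libraries they held 0.0039% to 0.0063%. Of these members, 37 had 0 counts in all DNA libraries, and all 37 had RNA counts. In DNA a count of 0 allows up to 1.30 CPM in the shallowest library, and for such members no ratio to DNA is given. Levels below are CPM after TMM scaling, on library totals that hold the tested regions only. A region with little DNA can thus still be read between chambers.

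Region 177-0 near Far1, an enzyme that makes fatty alcohols (chr7:113614210-113614609), had 0, 1407, 1685, 1510.3 and 1806 CPM in atrium, against 0, 1873, 1630.4, 1718 and 1689 CPM in ventricle. It had 0 to 2 counts in each DNA library, and replicate 1 alone was at 0 in both chambers. Region 95-0 inside Lars, a leucyl-tRNA synthetase (chr18:42224757-42225156), had 0, 1726, 2049.8, 1809 and 2094 CPM in atrium, against 2.35, 979.6, 1216, 1095 and 1100.1 CPM in ventricle. In replicates 2 to 5 its atrial values were all above the ventricular ones, while replicate 1 was near 0 in both. Tile 75-1 near Ntn1, the guidance factor netrin 1 (chr11:68390829-68391228), had 931 CPM in atrium and 1000.1 CPM in ventricle as the mean of replicates 2 to 5. Region 117-0 on chromosome 14 (chr14:104336793-104337192) had 798 and 767 CPM.

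With a minimum set on RNA counts in place of DNA counts, 73 of the 87 could be tested between chambers, and 4 were higher in atrium and 2 in ventricle. No count over all regions is given for this fit. Of the 87, 51 had 0 counts in atrial replicate 1 and 46 in ventricular replicate 1, and errors could be wide. Region 95-0, with replicates 2 to 5 wholly apart, had a log2 ratio of 0.86 ± 1.36 (adjusted p = 0.817) in this fit. A member that did not pass here was thus not shown to be alike in the chambers. Region 250-0 near Gtdc1, a glycosyltransferase-like protein (chr2:44951791-44952190), had 135, 159.8, 138, 118 and 133 CPM in atrium, against 39.2, 41.1, 48.1, 57.7 and 37.7 CPM in ventricle. All libraries including replicate 1 gave the same picture (log2 ratio 1.66 ± 0.17, adjusted p = 0.000128). The others higher in atrium were region 62-0 on chromosome 14 (2.78 ± 0.49, adjusted p = 0.00286), tile 29-1 near Snrpd3 (1.31 ± 0.25, adjusted p = 0.00475) and tile 217-1 in Ccdc188 (0.89 ± 0.21, adjusted p = 0.0155). Higher in ventricle were region 209-0 in Lsmem1 (-1.22 ± 0.25, adjusted p = 0.00662) and region 268-0 near Spin1 (-1.33 ± 0.32, adjusted p = 0.0151).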

How the data were processed

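The authors deposited raw counts per region, 1 file for each of 15 libraries, and a joint table with identical counts (0 differing values) and a group column. Per the submitters' processing notes, Bowtie2 2.3.4.3, cutadapt 2.5 and the build mm10 were used, and per the labels' protocols a primer with a molecular identifier was used. The sources used here do not say whether reads or collapsed molecules were counted.

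Each comparison was fitted on the whole table with edgeR 4.0.16 in R 4.3.3 (quasi-likelihood, robust, TMM factors), 5 against 5 libraries, over the 2601 regions whose DNA count averaged 10 or more. Benjamini-Hochberg adjustment ran over all of them, with calls below 0.05. Standard errors came from the log2 ratio and the F statistic. CPM are TMM-scaled within each comparison unless stated. DESeq2 1.42.0, other scalings, filters and library subsets were alternatives. The scripts were tested on simulated data.

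Regions were named by a rule: between chambers, the 12 largest differences each way among members that passed without overlap of libraries; against DNA, the 8 highest and 4 lowest per chamber; members on gene lists; and the 4 untested members with most RNA. The tile pairs given in detail and the untested members called under the RNA minimum were chosen after their values were seen. The members and lists were chosen with earlier results of these data known. Nearest genes and sequences are from RefSeq (GRCm38.p6). A planned description of sequence over all members was not run, since no genome was used here. The single values of 1 pair of tiles are not reported here.

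Deviations from the group means were correlated between an atrial and a ventricular library of the same number. The correlation was 0.819 for replicate 1 and 0.225 to 0.241 for the other numbers, all above the criterion of 0.1. Replicate 1 stood apart in both chambers and is part of each group mean, which by itself can give the other numbers a shared deviation. The correlations therefore cannot decide whether the numbers pair the chambers. The chamber tests used no replicate block unless stated. No pair of replicates agreed within sampling noise (lowest chi-square per degree of freedom 1.79 in DNA, 17.7 in atrium and 12.7 in ventricle).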

Additional observations from a re-analysis of the deposited data

Results flagged for a closer look

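In groups of 5 libraries, 6 of the 108 groups examined for the named regions had 1 library far from the other four by Dixon's criterion (gap over range above 0.71), which chance gives in about 1 in 20 groups. Region 154-0 in Pex3 had 355.2 CPM in atrial replicate 5, against 116.2 to 128.4 CPM in the other atrial libraries. Region 36-0 in Shb had 348.8 CPM in atrial replicate 3, against 88.4 to 149.2 CPM in the others. Region 102-0 on chromosome 8 had 362 CPM in ventricular replicate 2, against 89.2 to 149.1 CPM in the others. Region 56-0 near Azin1 had 599.9 CPM in atrial replicate 1, against 460.1 to 492.5 CPM. Region 228-0 near Snx6 had 5438 CPM in atrial replicate 1, against 1520.5 to 2326 CPM, and 4293 CPM in ventricular replicate 1, against 1300.2 to 1439 CPM. Thus 3 of the 6 were replicate 1 libraries, which also stood apart in the members at 0 counts.

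Among the 37 members with 0 counts in all 5 DNA libraries, 32 had at least 1 count in every RNA library of replicates 2 to 5 of both chambers. In replicate 1, 31 of the 37 had 0 counts in both RNA libraries. The source of this RNA was not tested.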

How the results depend on the processing

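Between chambers, the counts of members higher in atrium and in ventricle stayed within 1.5 times of 52 and 22 under the alternatives run: DESeq2 gave 60 and 24, scaling on the regions called Neg gave 70 and 15 (82.4% of calls toward atrium, against 70.3%, with the median of all regions moved by 0.16), and leaving out 1 library gave 44 to 51 and 20 to 24. In atrium against DNA, 41 members were lower with library totals, 42 with Neg scaling and 40 when DNA counts had to average 100, which tests fewer members, against 69, and 171 were higher with no filter, which tests more, against 103. The share of calls toward RNA was 75.9% with library totals and 74.5% with Neg scaling, against 59.9%. In ventricle against DNA, 169 were higher with no filter, against 97, and the share of calls toward RNA was 66.7% with library totals, against 53.9%. Leaving out 1 library gave 103 to 105 higher and 56 to 71 lower in atrium against DNA, and 94 to 99 and 78 to 87 in ventricle. With the replicate block, 99 and 70 members were called in atrium and 96 and 81 in ventricle against DNA, where same-numbered libraries share only a number (correlations of -0.032 to 0.061). Of the named regions, Foxp1 192-0 lost its call in 8 settings (adjusted p 0.0626 to 0.0936), and Igf1r 214-0 passed in 6 (0.00805 to 0.037). For 3 regions that did not pass, the log2 ratio between chambers changed sign: Chrm2 93-0 (-0.0197 without atrial replicate 5 to 0.2998 without atrial replicate 2 when 1 library was left out, and at most 0.3753 over all settings), Myocd 276-0 (-0.03 when DNA counts had to average 100, -0.0459 and -0.0113 without atrial replicates 2 and 4, and 0.0964 without atrial replicate 3, the highest with 1 library left out, and at most 0.1938 over all settings) and Myocd 1-0 (0.06 with Neg scaling, 0.16 with replicates 2 to 5, 0.07 and 0.08 without atrial replicates 1 and 2, 0.0025 and 0.2333 without ventricular replicates 1 and 2, and -0.271 without ventricular replicate 5). The cause was not tested. No ratio to DNA could be given for the 37 members with 0 counts in all DNA libraries.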
